A study of Mus musculus with 12 samples.

Results

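C-type lectin receptors are surface proteins of myeloid cells that bind sugars and glycolipids of microbes and of damaged cells. The set described here holds 10 genes, taken by symbol from the deposited gene table of 56980 features: Clec4e, Clec4d, Clec4n, Clec4a1, Clec4a2, Clec4a3, Clec4b1, Clec7a, Clec10a and Ly75. They comprise members of the Clec4 cluster, the gene of Dectin-1 (Clec7a) and the receptors Clec10a and Ly75. The set was selected on levels measured in these libraries, in that Clec4e and Clec4b1 had been seen to move in opposite directions, so the values of these 2 genes are given as a description, without a test. All 10 genes were among the 12052 that passed the filter on low counts. Clec10a passed it through the DMSO libraries alone, where it had 22 to 53 counts against 2 to 4 under drug, and Ly75 through the drug-treated libraries alone, with 32 to 170 counts against 4 to 6 in DMSO.

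The activating receptors among them have short tails and signal through the adaptor FcRγ (Fcer1g), the kinase Syk and the scaffold protein Card9, which leads to NF-κB activity and cytokine production. Mincle (Clec4e), MCL (Clec4d), Dectin-2 (Clec4n) and DCAR (Clec4b1) belong to this kind, whereas Dectin-1 carries its own activating motif. DCIR (Clec4a2) carries an inhibitory motif that recruits the phosphatases SHP-1 and SHP-2, and Clec4a1 and Clec4a3 belong to the same DCIR family. In macrophages, receptors of this family are best known for the recognition of mycobacterial and fungal surfaces.

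The libraries came from macrophages that had been grown from mouse bone marrow with M-CSF, a growth factor. Their genotype was wild type (WT) or Trem2 KO, a knockout of a lipid-sensing macrophage receptor. Over 22 hours they received the solvent DMSO or bafilomycin A1 (BafA1) at 25 nM, which blocks the V-ATPase that acidifies lysosomes. There were 4 groups of 3 libraries, called biological replicates in the labels, each from the pooled bones of several mice (3 in knockout work). All cells had been differentiated, frozen and thawed before treatment, and the labels used here do not state the strain, the age of the mice or the deleted part of Trem2. The series title names lysosomal alkalinization in both genotypes as the question.

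Libraries held 4407466 to 7074860 estimated counts from mRNA 3′ ends, and RNA integrity numbers were 9.7 to 9.9. Values are CPM, the counts scaled to library size, and because a 3′ tag does not allow levels of different genes to be set against each other safely, each gene is compared only with itself. Trem2 lay between 400.5 and 619 CPM in the WT libraries and between 147 and 219 CPM in the Trem2 KO libraries, so it was lower but not absent. A tag outside the deleted part could still be counted, so Trem2 does not fully check the genotype labels. All 10 macrophage markers were detected in every group, with sums of 7814 to 8373 CPM in WT DMSO and 7978 to 9332 CPM in Trem2 KO DMSO, and of 5550 to 6104 CPM in WT and 5472 to 6854 CPM in Trem2 KO under BafA1. Genes were tested with edgeR's quasi-likelihood test, adjusted over all 12052 genes by Benjamini-Hochberg at a threshold of 0.05, and every adjusted p below comes from it. In bulk RNA, fewer cells of a type and less RNA per cell cannot be told apart.

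On the mouse assembly GRCm38.p6 (RefSeq), 7 of the 10 genes lie in 1 run on chromosome 6 in the order Clec4a1, Clec4a3, Clec4b1, Clec4a2, Clec4n, Clec4d and Clec4e. Clec4a4 lies between Clec4a3 and Clec4b1, and Clec4b2 between Clec4a2 and Clec4n. Clec7a is also on chromosome 6, Clec10a on chromosome 11 and Ly75 on chromosome 2. The 250 bases before the transcription start are shown for the neighbours Clec4e and Clec4d and for Clec4b1. They were picked because Clec4e and Clec4b1 had the most opposed responses to the drug in WT. Clec4d lies beside Clec4e with a much smaller change. Capitals mark matches to GAGGAA (a PU.1-type motif, read as TTCCTC on the other strand) and to TTGCNNAA (a C/EBP-type motif, searched on both strands).
Clec4e, chr6:123289872-123290121, minus strand: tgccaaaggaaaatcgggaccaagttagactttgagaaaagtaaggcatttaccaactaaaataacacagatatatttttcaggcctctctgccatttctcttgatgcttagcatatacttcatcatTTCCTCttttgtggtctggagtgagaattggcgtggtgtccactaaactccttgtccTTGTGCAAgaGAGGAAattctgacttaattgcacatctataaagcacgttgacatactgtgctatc
Clec4d, chr6:123261857-123262106, plus strand: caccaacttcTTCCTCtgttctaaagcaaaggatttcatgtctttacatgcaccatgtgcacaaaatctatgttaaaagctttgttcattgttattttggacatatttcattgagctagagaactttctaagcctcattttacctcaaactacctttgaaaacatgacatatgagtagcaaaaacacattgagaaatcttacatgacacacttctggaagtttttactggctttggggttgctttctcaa
Clec4b1, chr6:123049712-123049961, plus strand: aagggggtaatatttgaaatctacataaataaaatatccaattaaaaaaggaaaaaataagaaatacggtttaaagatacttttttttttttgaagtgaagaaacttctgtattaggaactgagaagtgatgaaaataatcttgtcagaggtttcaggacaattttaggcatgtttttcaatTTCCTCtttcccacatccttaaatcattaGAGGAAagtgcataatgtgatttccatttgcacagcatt
GAGGAA was present in the windows of Clec4e, Clec4d and Clec4b1 alike, and in 6 of the 8 members with a window in the table, against 23.3% of 32851 windows of this length. TTGCNNAA was present in 2 of the 8, Clec4e and Ly75, against 9.56% of all windows. CACGTG, the core sequence bound by the lysosomal regulators TFEB and TFE3, was in none of the 8 and in 6.02% of all windows. GGAAGT, an Ets-type core that can overlap GAGGAA, was in 3 of 8 (19.7% of all), and an NF-κB-type pattern, GGG and CC with 5 bases between them, in 1 of 8 (45.8% of all). The AP-1-type TGANTCA (6.75% of all), the C/EBP-ATF composite TGATGCAA (0.791%) and the CRE-type TGACGTCA (1.55%) were in none. A match describes letters in a window and not a bound site. Clec4n and Clec10a had no entry.

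**Figure D1:**
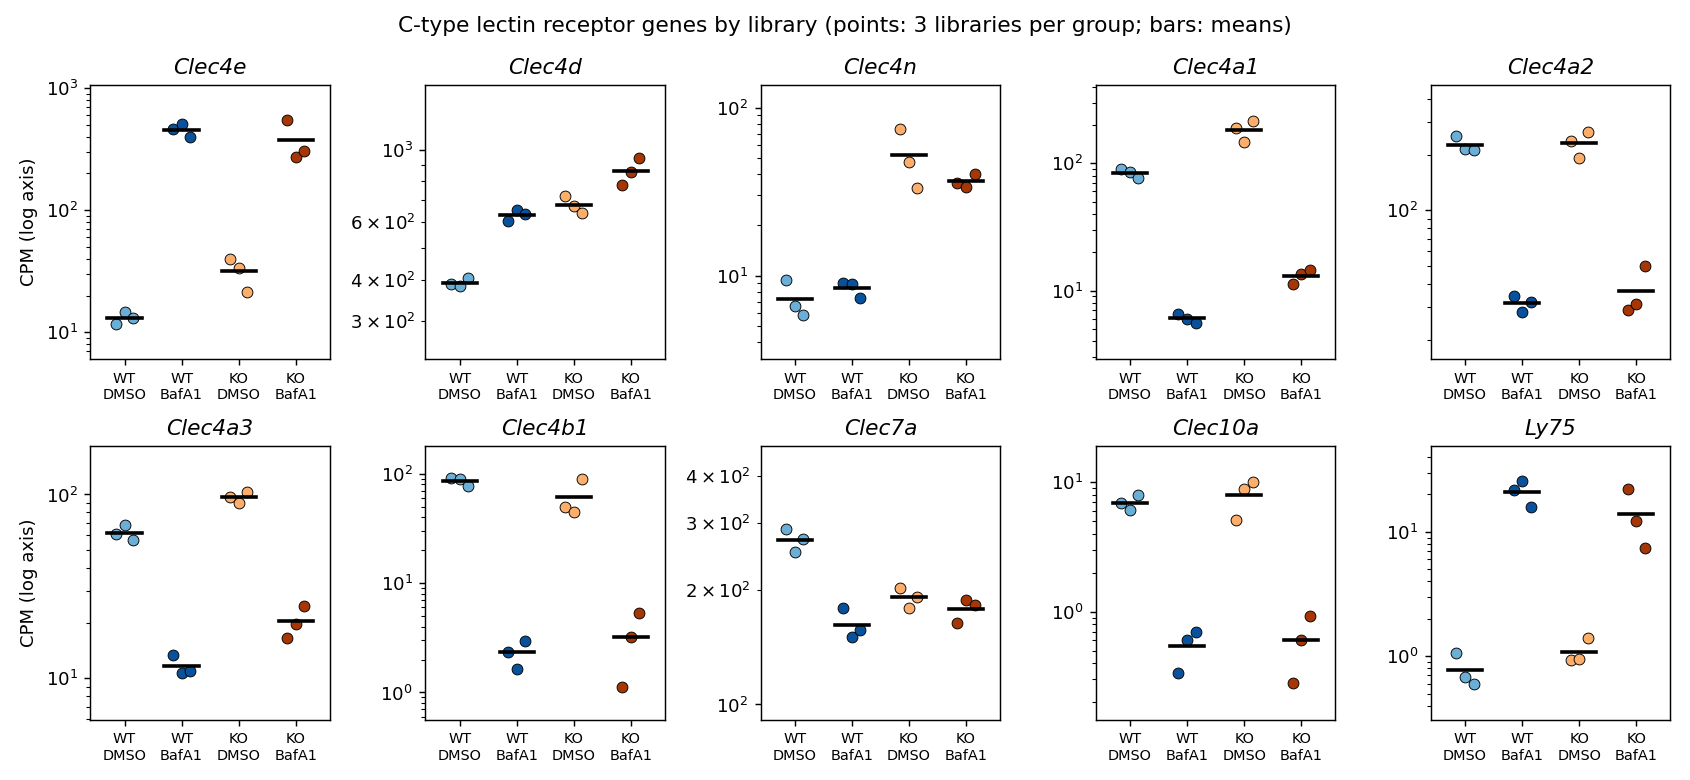
Level of each of the 10 receptor genes in every library (CPM, log axis), with 1 point per library, 3 libraries in each of the 4 groups and bars at the group means. Clec4e lies at 11.7 to 39.7 CPM in the DMSO libraries and at 273 to 546 CPM under BafA1, and Clec4b1 lies at 44.3 to 90.3 CPM and at 1.12 to 5.33 CPM.

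Among the activating receptors, Clec4e and Clec4b1 had opposite shifts under BafA1, the movement for which they were picked. Clec4e, which encodes Mincle, the receptor for mycobacterial cord factor, was at 11.7, 14.7 and 13.1 CPM in the 3 WT DMSO libraries and at 463, 505 and 399 CPM in the WT BafA1 libraries. In Trem2 KO it was at 39.7, 33.4 and 21.5 CPM in DMSO and at 546, 273 and 303 CPM under BafA1. Every BafA1 library was above every DMSO library. The fitted ratio of BafA1 to DMSO was 34.4 in WT and 11.9 in Trem2 KO. In DMSO each Trem2 KO library was above each WT library, with a fitted ratio of 2.39, whereas under BafA1 the genotypes overlapped. The first Trem2 KO BafA1 library was the highest of that group, and without it the log2 response in Trem2 KO was 3.19 in place of 3.57, and the log2 genotype difference under BafA1 was -0.67 in place of -0.28.

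Clec4d, the neighbour of Clec4e, encodes MCL, which pairs with Mincle at the cell surface. It was at 388, 383 and 404 CPM in WT DMSO and at 607, 655 and 634 CPM in WT BafA1. The Trem2 KO libraries held 721, 671 and 643 CPM in DMSO and 779, 854 and 944 CPM under BafA1. Within each genotype the drug-treated libraries were all above the DMSO libraries, and untreated Trem2 KO overlapped with treated WT. Clec4d rose by 0.69 on the log2 scale in WT (SE 0.077, adjusted p = 1.0e-07) and by 0.34 in Trem2 KO (SE 0.076, adjusted p = 0.00095). The change was thus 1.61-fold in WT and 1.27-fold in Trem2 KO, against fitted ratios of 34.4 and 11.9 for Clec4e.

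Clec4n encodes Dectin-2, a receptor for fungal mannans. Its level was set apart by genotype in both treatments. WT libraries held 9.39, 6.57 and 5.79 CPM in DMSO and 9.06, 8.87 and 7.30 CPM under BafA1, and these ranges overlapped. Trem2 KO libraries held 75.1, 47.7 and 33.1 CPM in DMSO and 35.7, 33.9 and 40.1 CPM under BafA1. Every Trem2 KO library was above every WT library, while the treatments overlapped within Trem2 KO. The log2 response in WT was 0.25 (95% confidence interval -0.35 to 0.85, adjusted p = 0.51). In Trem2 KO, Clec4n fell by 0.51 (SE 0.19, adjusted p = 0.034), but the call was lost without the first DMSO library (-0.14, adjusted p = 0.54), without the first BafA1 library (-0.49, adjusted p = 0.090) and without the second (-0.44, adjusted p = 0.10).

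Clec4b1 encodes DCAR, an FcRγ-coupled receptor. It was at 90.3, 88.4 and 76.7 CPM in WT DMSO and at 2.35, 1.65 and 2.95 CPM in WT BafA1. Trem2 KO libraries held 49.9, 44.3 and 89.8 CPM in DMSO and 1.12, 3.21 and 5.33 CPM under BafA1. The treatments were far apart in both genotypes, and the genotypes overlapped in each treatment. The fitted ratio of DMSO to BafA1 was 36.8 in WT and 20.9 in Trem2 KO, from 8 to 23 counts in each BafA1 library. In annotated transcripts (GENCODE M21), 90 of the 270 31-base words in the last 300 bases of Clec4b1, or 33.3%, also occur in Clec4a2. The last 300 bases of the other 9 members held no word shared with another gene, and bases further upstream were not searched. Estimated counts were fractional in all 12 libraries for Clec4b1 and Clec4a2, and in at most 5 for any other member. Reads could therefore be split between Clec4b1 and Clec4a2 in different ways. Their summed level was also lower under BafA1, at 311 CPM ± 27.8 (SD, n = 3) in WT DMSO and 33.8 ± 3.62 in WT BafA1. In Trem2 KO the sum was 293 ± 59.6 and 40.0 ± 13.5 CPM.

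The 3 tested genes of the DCIR family, Clec4a2, Clec4a1 and Clec4a3, fell under BafA1 in both genotypes. Clec4a2, the gene of the inhibitory receptor DCIR, was at 252, 214 and 211 CPM in WT DMSO and at 34.4, 28.1 and 32.0 CPM in WT BafA1. Trem2 KO libraries held 237, 193 and 266 CPM in DMSO and 29.0, 31.3 and 50.02 CPM under BafA1. Treatments did not overlap, while genotypes overlapped in both treatments. Clec4a2 fell by 2.84 on the log2 scale in WT (SE 0.15, adjusted p = 6.3e-13), a 7.17-fold decrease, and by 2.69 in Trem2 KO (SE 0.15, adjusted p = 4.8e-12), a 6.44-fold decrease, with the split of reads between it and Clec4b1 uncertain as above.

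Clec4a1 (DCIR4) had the steepest fall of these 3 genes. Its libraries were at 90.3, 85.6 and 76.0 CPM in WT DMSO and at 6.54, 6.02 and 5.56 CPM in WT BafA1. Trem2 KO libraries held 189, 146 and 215 CPM in DMSO and 11.2, 13.4 and 14.6 CPM under BafA1. All 4 groups were separate, in the order Trem2 KO DMSO, WT DMSO, Trem2 KO BafA1 and WT BafA1. Clec4a1 was 13.8-fold lower with drug in WT (log2 -3.79, SE 0.16, adjusted p = 3.1e-14) and 14.2-fold lower in Trem2 KO (log2 -3.83, SE 0.14, adjusted p = 2.3e-14). Clec4a3 (DCIR3), its neighbour, had the same order of groups without overlap. It was at 61.3, 68.1 and 56.4 CPM in WT DMSO and at 13.4, 10.7 and 10.9 CPM in WT BafA1. In Trem2 KO it was at 96.8, 89.7 and 103 CPM in DMSO and at 16.7, 19.8 and 24.8 CPM under BafA1. Clec4a3 fell 5.29-fold in WT (log2 -2.40, SE 0.13, adjusted p = 1.7e-12) and 4.80-fold in Trem2 KO (log2 -2.26, SE 0.12, adjusted p = 4.0e-12).

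**Figure D2:**
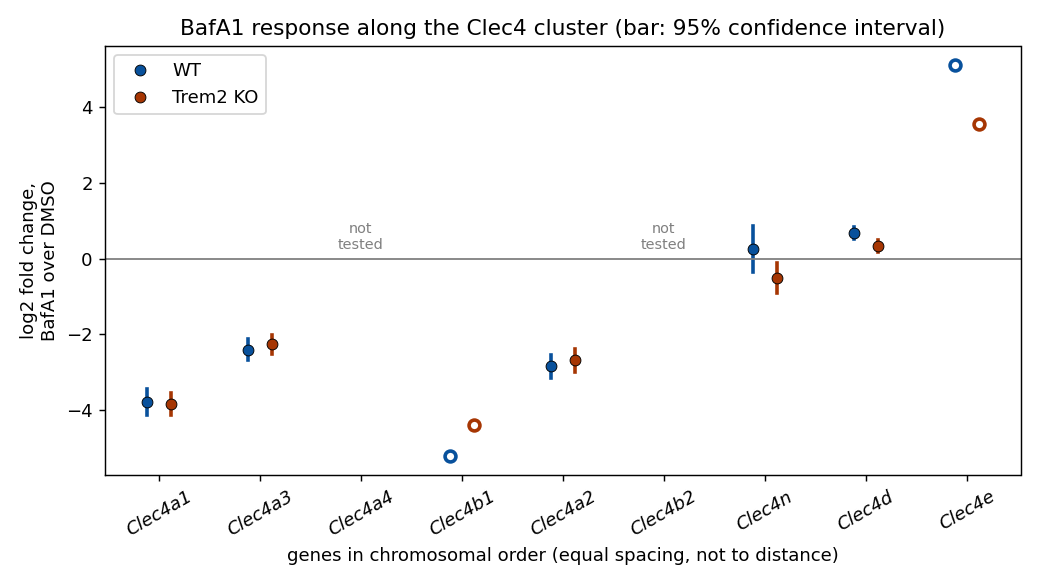
Response to BafA1 (log2 fold change over DMSO) of the Clec4 cluster genes in chromosomal order, for WT and Trem2 KO. Bars are 95% confidence intervals, and open points are genes given without a test. Clec4a1, Clec4a3, Clec4a2 and Clec4b1 lie below 0, and Clec4d and Clec4e at the other end of the cluster lie above it.

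Clec4a4 and Clec4b2, the other genes of the cluster, passed no filter and were not tested. Clec4a4 had means of 0.877 CPM (WT) and 1.65 CPM (Trem2 KO) in DMSO, and of 0.0501 and 0.171 CPM under BafA1. Clec4b2 did not exceed a mean of 0.141 CPM in any group.

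The members outside the cluster split in direction. Clec7a encodes Dectin-1, the receptor for fungal β-glucans. It was at 290.2, 252 and 273 CPM in WT DMSO and at 179, 151 and 157 CPM in WT BafA1, without overlap. Trem2 KO libraries held 203, 179.8 and 192 CPM in DMSO and 164, 188 and 183 CPM under BafA1, which overlapped. Clec7a fell by 0.74 in WT (SE 0.083, adjusted p = 1.2e-07), or 1.67-fold. In Trem2 KO its log2 response was -0.10 (95% confidence interval -0.28 to 0.072, adjusted p = 0.36).

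Clec10a (MGL1), a receptor for galactose-type sugars, was at 6.83, 6.06 and 7.86 CPM in WT DMSO and at 0.34, 0.60 and 0.70 CPM in WT BafA1. The Trem2 KO libraries held 5.08, 8.78 and 9.95 CPM in DMSO and 0.28, 0.60 and 0.93 CPM under BafA1. Genotypes overlapped within each treatment, and all drug-treated libraries were lower. The fitted ratio of DMSO to BafA1 was 12.3 in WT and 13.9 in Trem2 KO, and rests on the 2 to 4 counts of each drug-treated library. It is given without a test, since the gene passed the filter through its DMSO libraries alone.

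Ly75 encodes DEC-205, an endocytic receptor best known on dendritic cells. It was at 1.07, 0.67 and 0.59 CPM in WT DMSO and at 21.8, 25.6 and 15.8 CPM in WT BafA1. Trem2 KO libraries held 0.92, 0.95 and 1.39 CPM in DMSO and 22.3, 12.2 and 7.41 CPM under BafA1. Every drug-treated library was above every DMSO library. The fitted ratio of BafA1 to DMSO was 27.4 in WT and 13.3 in Trem2 KO, each against 4 to 6 counts in a DMSO library. It is given without a test, since the gene passed the filter through its drug-treated libraries alone. The 10 dendritic-cell markers went the other way in sum, from 4.45 to 7.05 CPM in WT DMSO down to 1.80 to 2.18 CPM in WT BafA1, and from 13.4 to 16.8 CPM down to 3.36 to 7.81 CPM in Trem2 KO. Xcr1, Clec9a and Cd209a were at 0 in WT BafA1, and Cd209a and Kmo in Trem2 KO BafA1. Xcr1 was at 0 in WT DMSO too, where Clec9a and Cd209a had only 3 counts each over the group. Untreated Trem2 KO held 8 counts of Cd209a and 18 of Kmo over its group. Counts of these genes were low without drug as well, so nothing is read from their values of 0. Cd302, which lies next to Ly75 in the RefSeq table and was picked for that position, rose by 0.75 in WT (SE 0.16, adjusted p = 0.00054) and by 0.50 in Trem2 KO (SE 0.17, adjusted p = 0.024), where the libraries of both treatments overlapped. The other neighbour, Pla2r1, was not tested, with means of 0.580 and 0.280 CPM in WT and of 0.358 and 0.191 CPM in Trem2 KO, without and then with drug.

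**Figure D3:**
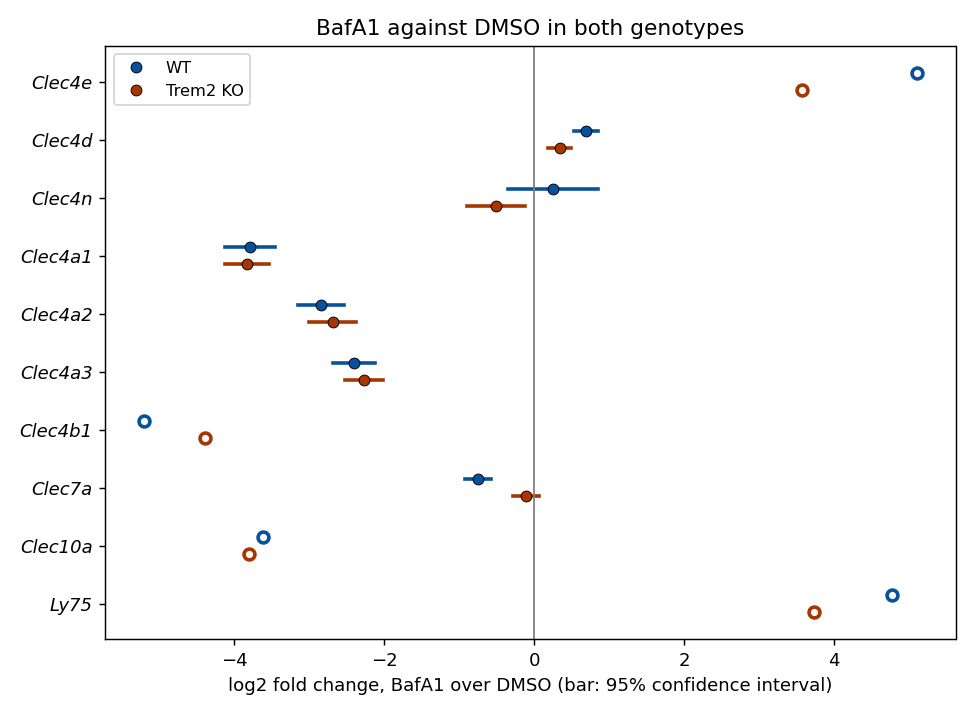
Log2 fold change of BafA1 over DMSO for the 10 receptor genes in WT and Trem2 KO. Bars are 95% confidence intervals, and open points are genes given without a test. Clec4e and Ly75 lie above 3.5 in both genotypes on this scale, and of the intervals drawn only 1 of Clec4n and 1 of Clec7a cross 0.

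Without Clec4e, Clec4b1, Clec10a and Ly75, 6 members had a test of the drug, and 1 rose and 4 fell in WT, where 46.9% of all tested genes passed the threshold (21.6% higher and 25.3% lower). In Trem2 KO likewise 1 rose and 4 fell, where 40.6% of genes passed (19.8% higher and 20.7% lower). These contrasts were known when the set was drawn up, so nothing is read from the counts. The median log2 change of all tested genes was -0.04 in WT and 0.00 in Trem2 KO. Markers of other cells moved with the drug too. The summed level of 12 granulocyte markers was 159.5 to 177 CPM in WT DMSO and 48.0 to 59.8 CPM in WT BafA1, and 403 to 689 and 71.1 to 125 CPM in Trem2 KO. The 8 monocyte markers summed to 85.7 to 98.0 CPM without and 11.3 to 17.1 CPM with drug in WT, and to 119.7 to 167 and 11.0 to 19.0 CPM in Trem2 KO. All 7 tested granulocyte markers fell in both genotypes. Of 7 tested monocyte markers 5 fell in each genotype, with Fn1 among them in WT alone and F13a1 in Trem2 KO alone. F13a1 had only 13 and 4 counts per group in WT, without and then with drug, against 225 and 23 in Trem2 KO. Plac8 had 26 and 1 in WT, against 126 and 8. Both were near the floor outside Trem2 KO DMSO, so nothing is read from their share of the counts. Hp, another monocyte marker, rose by 2.82 in WT (adjusted p = 3.9e-07). Markers of macrophages moved as well, since 9 of the 10 fell in each genotype, with a median log2 change of -1.31 in WT and -1.55 in Trem2 KO. The remaining marker, Cd68, rose by 0.44 in WT (adjusted p = 2.2e-05) and was at 0.14 in Trem2 KO (adjusted p = 0.12). The sum of the 10 macrophage markers is mostly Lyz2, which fell by 0.30 in WT (adjusted p = 0.022). Fcgr1 and Aif1, named for the largest falls among the 10 after their values were seen, fell by 3.97 and 3.88 in WT. The part of any of these marker changes in the lower receptor levels was not tested.

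Genotype set several receptors apart without drug. In DMSO, 4 of the 8 tested members were higher in Trem2 KO and 1 was lower, where 30.3% of all tested genes passed (13.8% higher and 16.5% lower). Members and gene lists were chosen with earlier results of these data known. Nothing is therefore read from the counts by genotype or interaction, here or below. Clec4n was 7.31-fold higher in Trem2 KO (log2 2.87, SE 0.23, adjusted p = 3.0e-09). Clec4a1 was 2.19-fold higher (log2 1.13, SE 0.11, adjusted p = 4.8e-08), Clec4d 1.73-fold (log2 0.79, SE 0.077, adjusted p = 4.3e-08) and Clec4a3 1.56-fold (log2 0.64, SE 0.11, adjusted p = 7.5e-05). Clec7a was 1.42-fold lower in Trem2 KO (log2 -0.51, SE 0.084, adjusted p = 6.2e-05). For Clec4a2 the log2 difference was 0.04 (95% confidence interval -0.22 to 0.30, adjusted p = 0.85), for Clec10a 0.20 (-0.35 to 0.74, adjusted p = 0.62) and for Ly75 0.51 (-1.06 to 2.08, adjusted p = 0.66). Ly75 had only 4 to 6 counts in each DMSO library.

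Under BafA1, 4 of the 8 passed, each higher in Trem2 KO, where 26.7% of all tested genes passed (12.5% higher and 14.2% lower). Clec4n was 4.31-fold higher (log2 2.11, SE 0.23, adjusted p = 7.0e-07) and Clec4a1 2.12-fold higher (log2 1.09, SE 0.21, adjusted p = 0.00052). Clec4a3 was 1.72-fold higher (log2 0.78, SE 0.15, adjusted p = 0.00074) and Clec4d 1.36-fold higher (log2 0.44, SE 0.076, adjusted p = 0.00018). Clec4a2 differed by 0.19 (95% confidence interval -0.15 to 0.54, adjusted p = 0.42) and Clec7a by 0.13 (-0.042 to 0.31, adjusted p = 0.26). Clec10a differed by 0.02 (95% confidence interval -1.37 to 1.40, adjusted p = 0.99), from 2 to 4 counts per library. Ly75 was at -0.53 (SE 0.24, adjusted p = 0.11), and passed the threshold without the first Trem2 KO BafA1 library (-1.09, adjusted p = 0.0015).

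**Figure D4:**
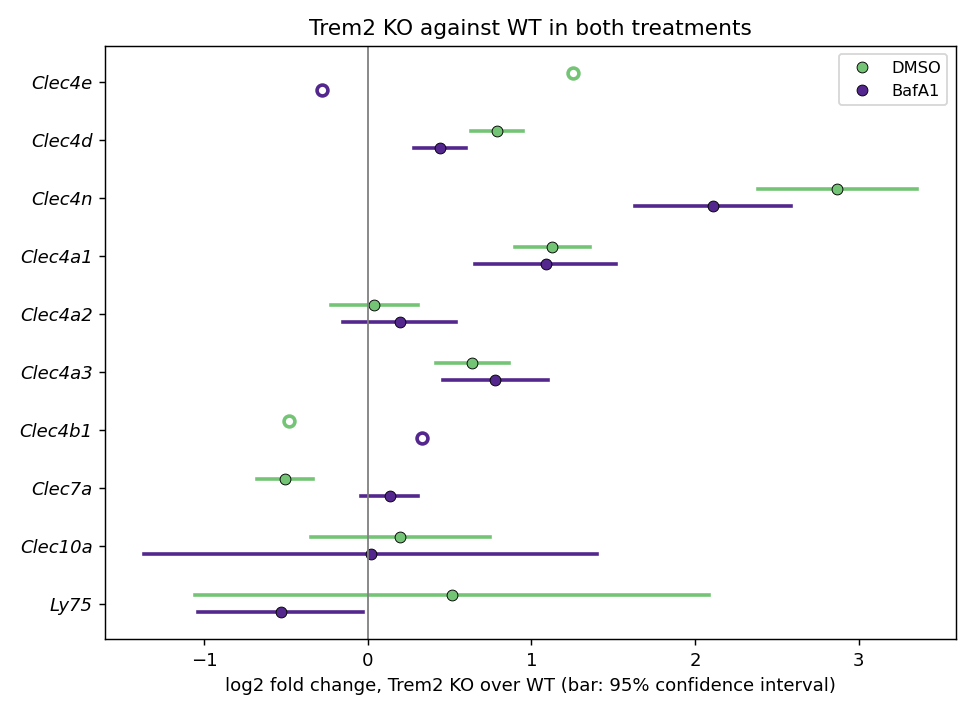
Log2 fold change of Trem2 KO over WT for the 10 receptor genes in DMSO and under BafA1. Bars are 95% confidence intervals, and open points are genes given without a test. Clec4n has the highest value in both treatments, and the Clec7a value is -0.51 in DMSO and 0.13 under BafA1.

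Markers of granulocytes and monocytes also differed between the genotypes. The granulocyte sum was 403 to 689 CPM in Trem2 KO DMSO against 159.5 to 177 CPM in WT DMSO, and all 7 tested markers were higher in Trem2 KO. Under BafA1 it was 71.1 to 125 CPM in Trem2 KO against 48.0 to 59.8 CPM in WT, and 2 of the 7 were higher. Ly6g was at 0 in WT DMSO and in Trem2 KO BafA1, and Mpo in WT BafA1. Of 7 tested monocyte markers, 5 were higher and 1 lower in Trem2 KO in DMSO (median log2 difference 2.09), and 3 were higher and 1 lower under BafA1 (median 1.51). F13a1 and Plac8 had few counts outside Trem2 KO DMSO, as given above, so nothing is read from their share here. Over all tested genes 13.8% were higher and 16.5% lower in DMSO, and 12.5% and 14.2% under BafA1. In the Trem2 KO DMSO libraries 1, 2 and 3 the granulocyte sum was 519, 403 and 689 CPM, beside Clec4n levels of 75.1, 47.7 and 33.1 CPM. Most of that sum came from S100a8 and S100a9, with means of 242 and 176 CPM in Trem2 KO DMSO. Ngp, Mmp8, Ltf, Lcn2 and Camp had means of 54.3, 18.5, 16.0, 13.4 and 9.28 CPM there. In WT DMSO the same genes were at 14.7, 11.0, 3.52, 2.72 and 2.37 CPM. Cxcr2 had a mean of 3.11 CPM in Trem2 KO DMSO, and Ly6g, Mpo, Elane and Retnlg did not exceed a mean of 1.40 CPM there. The part of cells with any of these markers in the higher levels of Clec4n, Clec4d and the other receptors in Trem2 KO was not tested.

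**Figure D5:**
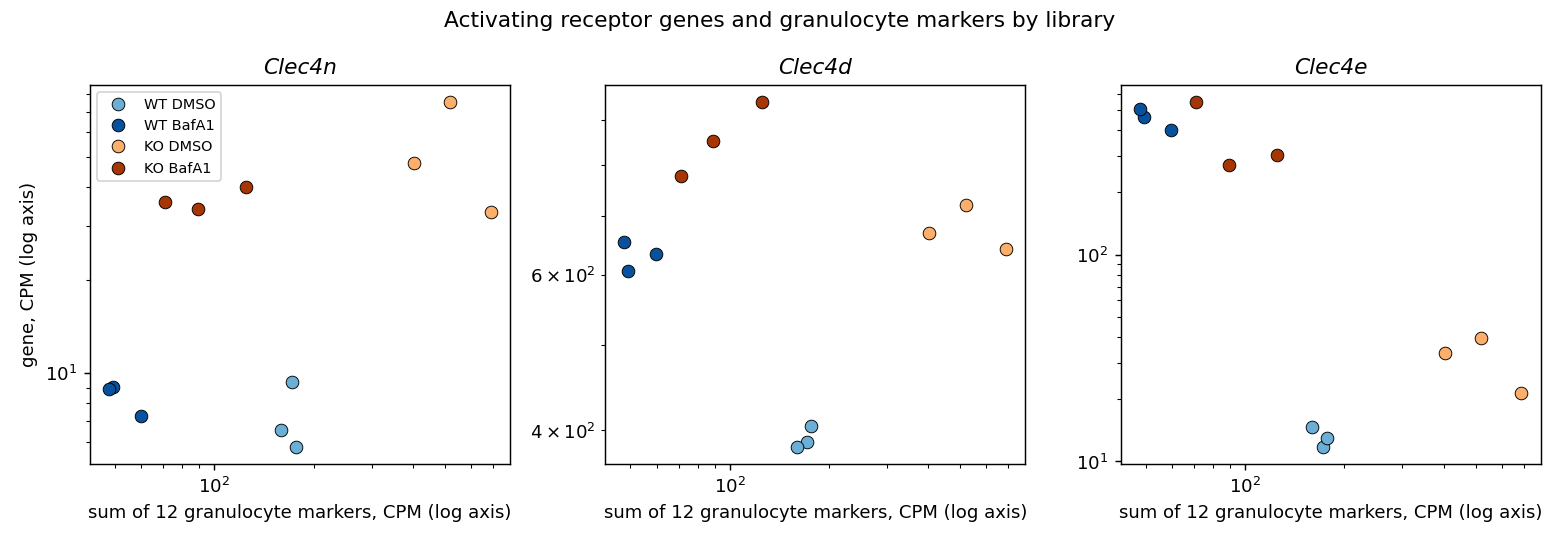
Level of Clec4n, Clec4d and Clec4e in each library (CPM, log axis) against the summed level of 12 granulocyte markers (CPM, log axis), with 1 point per library coloured by group. The marker sum lies at 403 to 689 CPM in Trem2 KO DMSO and at 177 CPM or less in every other group.

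The responses themselves differed between genotypes for 2 of the 8 tested members, 1 in each direction, where the interaction passed for 8.81% of all tested genes (4.88% higher and 3.93% lower). The response of Clec7a was 0.64 higher in Trem2 KO than in WT (SE 0.12, 95% confidence interval 0.39 to 0.89, adjusted p = 0.0015). This gene had fallen from a higher WT level to one that overlapped with drug-treated Trem2 KO. The response of Clec4d was lower in Trem2 KO by -0.35 (SE 0.11, 95% confidence interval -0.57 to -0.13, adjusted p = 0.044). That call was lost in 8 of the 12 fits that left out 1 library, with adjusted p of 0.052 to 0.097, namely without replicates 1 and 2 of WT DMSO, replicates 1, 2 and 3 of WT BafA1, replicates 1 and 2 of Trem2 KO DMSO and replicate 1 of Trem2 KO BafA1. It was also lost with no filter on low counts (adjusted p = 0.069).

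For the 3 tested DCIR-family genes no difference of responses passed the test. The interaction of Clec4a1 was -0.04 (95% confidence interval -0.57 to 0.49, adjusted p = 0.94), that of Clec4a2 was 0.16 (adjusted p = 0.72) and that of Clec4a3 was 0.14 (adjusted p = 0.71). Clec4n had an interaction of -0.76 (SE 0.35, adjusted p = 0.18), which passed without the third Trem2 KO DMSO library (-1.01, adjusted p = 0.027). Ly75 had -1.04 (95% confidence interval -2.71 to 0.63, adjusted p = 0.47) and Clec10a -0.18 (adjusted p = 0.92). For Clec4e the log2 responses differed by -1.53, and by -1.93 without the first Trem2 KO BafA1 library, and for Clec4b1 by 0.81, both given without a test.

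The signalling chain shared by the activating receptors begins with the adaptor Fcer1g, which did not pass the test for BafA1. Fcer1g was at means of 571 and 616 CPM in WT and 663 and 663 CPM in Trem2 KO, each without and then with drug, with a log2 response of 0.11 in WT (adjusted p = 0.22). In DMSO it was higher in Trem2 KO by 0.22 (SE 0.072, adjusted p = 0.025). Syk, the kinase recruited by the adaptor, was at 88.8, 124, 141 and 134 CPM in the same order. Syk rose by 0.48 in WT (SE 0.079, adjusted p = 2.6e-05), was at -0.08 in Trem2 KO (adjusted p = 0.45), and its interaction was -0.56 (SE 0.11, adjusted p = 0.0027). Card9 had group means of 0.60 to 1.25 CPM and was not tested.

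Of the 20 genes of the signalling list 19 were tested. In WT, 4 rose and 7 fell under BafA1, where 21.6% of all tested genes rose and 25.3% fell. The median log2 change was -0.09 against -0.04 over all genes. The adaptor protease Malt1, which works downstream of Card9, rose by 1.43 (SE 0.13, adjusted p = 6.2e-09). Of the phosphatases that work with inhibitory receptors, Inpp5d (SHIP-1) fell by 1.01 (SE 0.087, adjusted p = 2.0e-09) and Ptpn6 (SHP-1) by 0.86 (SE 0.077, adjusted p = 3.4e-09). The third, Ptpn11 (SHP-2), was at -0.03 in WT (adjusted p = 0.80) and -0.01 in Trem2 KO (adjusted p = 0.91). In Trem2 KO, 2 rose and 6 fell (median -0.07), where 19.8% of all tested genes rose and 20.7% fell. There Ptpn6 was at -0.93, Inpp5d at -0.83 and the kinase Lyn at -0.85. Trem2 KO against WT gave 5 higher and 2 lower in DMSO (median 0.15) and 3 higher and 1 lower under BafA1 (median 0.11). Over all tested genes 13.8% were higher and 16.5% lower in DMSO, and 12.5% and 14.2% under BafA1.

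Other C-type lectin genes are set beside the 10 from a list of 34, of which 12 were tested. Under BafA1, 3 rose and 6 fell in WT (median log2 change -0.34), and 3 rose and 7 fell in Trem2 KO (median -0.64). The shares of all tested genes that rose and fell were 21.6% and 25.3% in WT, and 19.8% and 20.7% in Trem2 KO. Cd72, an inhibitory lectin also known on B cells, fell by 3.72 in WT (SE 0.16, adjusted p = 3.1e-14) and by 3.47 in Trem2 KO. Clec12a, an inhibitory receptor for uric acid crystals, fell by 1.28 in WT (SE 0.094, adjusted p = 1.4e-10) and by 0.91 in Trem2 KO. Clec5a, which signals through DAP12, the adaptor also used by Trem2, rose by 1.40 in WT (SE 0.13, adjusted p = 3.5e-09) and by 2.00 in Trem2 KO (adjusted p = 3.8e-11), and its interaction was 0.60 (SE 0.18, adjusted p = 0.042).

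Mrc1, the mannose receptor, resembled Clec4a1 and Clec4a3 in the direction of both differences. It fell by 0.62 in WT (SE 0.15, adjusted p = 0.0019) and by 0.48 in Trem2 KO (adjusted p = 0.0075), and it was higher in Trem2 KO by 1.29 in DMSO (adjusted p = 2.9e-07) and by 1.43 under BafA1 (adjusted p = 3.6e-07). In all, Trem2 KO against WT gave 3 higher and 3 lower of the 12 in DMSO (median 0.01), and 3 higher and 1 lower under BafA1 (median 0.04). Over all tested genes 13.8% were higher and 16.5% lower in DMSO, and 12.5% and 14.2% under BafA1. The interaction passed for 1 of the 12, Clec5a, and for 8.81% of all tested genes. Mgl2, the close relative of Clec10a, did not exceed a mean of 0.482 CPM and was not tested.

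The genes most like Clec4e and Clec4b1 were ranked by the Pearson correlation of log2 CPM over the 12 libraries, among 7976 genes. For Clec4e they were Rnf149 (r = 0.993), Rhoq (0.992) and Cyp4v3 (0.991). For Clec4b1 they were Ptpn18 (0.995), Clec12a (0.991) and Zfp710 (0.991). The libraries fall into 2 treatments, so these values mostly describe a shared split between DMSO and BafA1. The size of the shift differed, since Rnf149 had means of 427 CPM in WT DMSO and 1003 in WT BafA1, against 13.2 and 456 for Clec4e. Ptpn18 had 224 and 62.0 CPM, against 85.2 and 2.32 for Clec4b1.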

How the data were processed

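RNA of 12 macrophage cultures was measured, 3 for each combination of genotype and treatment. Per the labels' protocols, a 3′ mRNA kit with molecular identifiers against PCR duplicates was used, and Salmon and GRCm39 are named in the submitters' processing notes. The deposited table holds estimated counts per gene, not normalized by the authors, and since 42% of its nonzero values were fractional, all were rounded. A deposited log2 CPM table made by the authors differed by at most 0.00045 from values recomputed here and was used for nothing else. The score of RNA integrity was deposited by the authors in the labels.

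The 12052 genes kept by filterByExpr (minimum count 10, minimum total 15) entered edgeR 4.0.16 under R 4.3.3, with TMM scaling, the quasi-likelihood test and 1 fit of all 12 libraries with group means alone. P-values measure the spread between libraries from pooled mice. The members, gene lists and rules were chosen with earlier results of these data known. No test is given for Clec4e and Clec4b1, nor for Clec10a and Ly75 for BafA1 against DMSO, though the fit held all of them. Named genes were the members and Trem2, up to 3 called genes of each list by smallest p in a contrast, fixed signalling genes and relatives, and the 3 genes most correlated with Clec4e and with Clec4b1. Some genes that this rule names are not reported here. Replicate libraries differed beyond sampling noise (chi-square of 2.16 to 5.63 per degree of freedom). Promoter windows came from a RefSeq table on GRCm38.p6, and none of its coordinates was mixed with the counts. Totals per library set the precision, and genes with few counts have wide intervals. Alternatives were DESeq2 1.42.0, other scalings and filters, a replicate block, and fits that dropped each library in turn. Marker sums not given in the report were 2.56 to 10.2 CPM for 8 mast cell and basophil genes, with Mcpt4 at 0 in all libraries, and 0.601 to 4.40 CPM for 8 lymphocyte genes.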

Additional observations from a re-analysis of the deposited data

Results flagged for a closer look

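For 2 receptor genes the response to BafA1 differed between the genotypes by a test of the difference itself. The log2 response of Clec7a was 0.64 higher in Trem2 KO than in WT (SE 0.12, edgeR adjusted p = 0.0015), and all 3 WT libraries with drug were below all 3 without. The log2 response of Clec4d differed by -0.35 (SE 0.11, edgeR adjusted p = 0.044), with a rise in both genotypes. The Clec4d result rests close to the threshold. Its call was lost in most fits that left out a single library, and with no filter on low counts.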

How the results depend on the processing

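Counts of members past the threshold are given here over 8 members, with Clec10a and Ly75 included for every comparison, or over 7 with a filter of 10 CPM in 3 libraries, which Clec10a did not pass. RLE factors, library size alone, DESeq2, the 10 CPM filter and, for the 4 two-group comparisons, a fit of the 6 libraries compared left each count within 1.5 times its value. The interaction passed for 2 members, and for 1 with no filter on low counts and 1 with the replicate block. The replicate block rests on shared numbers only, since same-numbered libraries had correlations of -0.114 to 0.164 and not every pair was over 0.1. With it Clec4d had an interaction adjusted p of 0.053 in edgeR, and Ly75 passed for Trem2 KO against WT under BafA1 (-0.61, adjusted p = 0.027), as it did with no filter (-0.54, adjusted p = 0.027). Leaving out 1 library gave counts of 7 to 7 in WT, 6 to 7 in Trem2 KO, 5 to 5 between genotypes in DMSO, 4 to 5 under BafA1 and 1 to 3 for the interaction. Of all tested genes, these fits called 40.8% to 47% in WT and 33.9% to 40.8% in Trem2 KO. Between genotypes they called 24.6% to 30.6% in DMSO and 17.6% to 27.2% under BafA1, and 5.44% to 9.52% for the interaction. Clec10a and Ly75 passed the filter through 1 treatment alone, so nothing is read from the counts for BafA1 against DMSO. Of the values of single members under the alternatives, 913 kept their side of the threshold or stayed within the spread, 13 lost the call, 4 gained it and 3 moved. Clec10a and Ly75 for BafA1 against DMSO are among these values, and nothing is read from that part. A change of sign was counted as a reversal only for called values, and 0 of these reversed. Values without a call did change sign. Under BafA1, Trem2 KO against WT ran from -0.38 to 0.45 for Clec10a and from -0.20 to 0.87 for Clec4b1 when 1 library was left out. The cause of these changes was not tested. Depth limits Clec10a, Clec4b1 and Ly75 most, in the groups where they had few counts.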

Other observations

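Transcription factors of myeloid cells and target genes of the receptors were read in the same fits as values. Of 15 tested factors in a list of 16, 3 rose and 9 fell under BafA1 in WT (median log2 change -0.27), and 3 rose and 8 fell in Trem2 KO (median -0.35). The shares of all tested genes that rose and fell were 21.6% and 25.3% in WT, and 19.8% and 20.7% in Trem2 KO. Maf, a factor of resident macrophages, fell by 2.38 in WT (SE 0.12, edgeR adjusted p = 5.6e-13) and by 2.22 in Trem2 KO. Irf5, a factor of inflammatory genes, fell by 1.40 in WT and by 1.32 in Trem2 KO. Between genotypes Maf was higher in Trem2 KO by 0.72 in DMSO and 0.88 under BafA1. Irf8 was higher in Trem2 KO by 0.48 in DMSO (edgeR adjusted p = 3.4e-05), and Cebpb, a C/EBP factor, rose with BafA1 by 0.90 in WT (edgeR adjusted p = 3.3e-08) and by 0.49 in Trem2 KO (edgeR adjusted p = 0.00025). In drug-treated cells Cebpb was lower in Trem2 KO than in WT (-0.46, edgeR adjusted p = 0.00069). In all, 4 factors were higher and 3 lower in DMSO (median 0.01) and 2 and 2 under BafA1 (median -0.07). Over all tested genes 13.8% were higher and 16.5% lower in DMSO, and 12.5% and 14.2% under BafA1.

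Of 20 genes known as targets of CARD9 and NFAT signalling 13 were tested, and 4 rose and 3 fell in WT (median 0.09), and 1 rose and 6 fell in Trem2 KO (median -0.32). The shares of all tested genes that rose and fell were 21.6% and 25.3% in WT, and 19.8% and 20.7% in Trem2 KO. Nr4a1, an early response gene, fell by 4.38 in WT (SE 0.31, edgeR adjusted p = 7.0e-11) and by 4.07 in Trem2 KO, and Egr1, another, fell by 2.24 in WT. The cytokine gene Tnf rose by 0.83 in WT (edgeR adjusted p = 5.6e-05) and by 0.80 in Trem2 KO (edgeR adjusted p = 0.0002). The chemokine gene Ccl3 rose by 1.50 in WT and was at -0.12 in Trem2 KO, with an interaction of -1.62 (SE 0.20, edgeR adjusted p = 2.6e-05), and it was higher by 1.50 in untreated Trem2 KO. Trem2 KO against WT gave 5 higher and 3 lower in DMSO (median 0.05), 1 higher and 3 lower under BafA1 (median -0.04), and the interaction passed for 2, both lower. Over all tested genes 13.8% were higher and 16.5% lower in DMSO, and 12.5% and 14.2% under BafA1. The interaction passed for 8.81% of all tested genes, with 3.93% lower.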
